A study of Mus musculus with 447 samples.

Results

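The 32 genes described here encode the enzymes and other proteins of pancreatic juice. They were taken from a fixed list of symbols, and all 32 were found among the 40824 genes of both deposited count matrices. The list holds 2 carboxypeptidases, 3 chymotrypsin-like proteases, 3 elastases, 5 trypsinogens, 6 lipases with their cofactor, 3 amylases, 1 ribonuclease and 9 granule or juice proteins. RNA was read by Smart-seq3, a plate method for full-length polyadenylated RNA. The 447 single cells were sorted for GFP from the pancreas of mouse fetuses at E15.5.

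Of these cells, 235 were labelled Pdx1CreNgn3KONeurod1OE (here Ngn3KO) and 212 Pdx1CreNeurod1OE (here Neurod1OE). In both genotypes a Cre recombinase under the Pdx1 promoter, inducible by tamoxifen, was used to overexpress Neurod1, and in Ngn3KO mice floxed Ngn3 (Neurog3) was deleted as well. Because Pdx1 is used by early pancreatic epithelium, the driver is not restricted to endocrine precursors. Titles put 30 Ngn3KO and 95 Neurod1OE cells into a set 3 and all others into a set 2, in 2 separate matrices. The labels do not say what distinguishes the sets. Wild-type cells were not analysed here, so both genotypes carry the Neurod1 transgene.

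Since animals and litters are not named in the labels, a genotype counted as 1 sample and no p-value is given for any difference between genotypes. Ranges in parentheses after a level or a share of cells are 95% intervals (exact Poisson or Clopper-Pearson), which cover counting error only. The total per cell ranged from 25769 to 2788066 reads. The medians were 344128 reads for Ngn3KO and 572744 for Neurod1OE cells of set 2, and 728074 for Ngn3KO and 695079 for Neurod1OE cells of set 3. The 2 matrices shared 0 column names. Cells labelled Ngn3KO in set 3 had little Neurod1, the overexpressed gene. It was at 30.4 CPM (counts per 1000000 summed counts) there, against 217 CPM in Neurod1OE cells of set 3. In set 2 it was at 292 CPM in Ngn3KO and 332 CPM in Neurod1OE cells. These groups differ in cell type, since 29 of the 30 cells had 1000 CPM or more of Cpa1. Neurod1OE cells of set 3 with that much Cpa1 and under 1000 CPM of the endocrine gene Chga were also low. Neurod1 ran from 0 to 51.3 CPM in these 10 cells. All 30 Ngn3KO cells of set 3 were also male by sex-linked genes, whereas Neurod1OE cells of set 3 were 65 male and 27 female. Every genotype ratio in set 3 rests on these 30 cells. Sex also differed between the genotypes in set 2, in the other direction. There 0 Ngn3KO cells were male, and all whose sex could be called were female. Neurod1OE cells of set 2 were 50 male and 53 female.

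Acinar cells of the exocrine pancreas make digestive enzymes, most of them as inactive precursors, store them in zymogen granules and release them into the duct when food arrives. Proteases become active in the gut, where trypsin, cut free from trypsinogen, activates the others. Lipases work with colipase and bile salts on dietary fat, and amylases cut starch. Transcription of these genes depends on PTF1, a complex of Ptf1a, a bHLH E-protein and Rbpjl, which binds an E-box beside a TC-box. Cpa1 also marks early multipotent tip cells before acinar differentiation is complete.

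Promoters were set side by side because most enzyme genes were high together in Ngn3KO cells of set 3 while the phospholipase gene Pla2g1b was not. Of the 32 genes, 25 had an entry in RefSeq's promoter table (assembly GRCm38.p6), which holds the 250 bases before and 50 bases after each start. Both strands were searched for the TATA box TATAAA. The E-box searched was CACCTG. The TC-box searched was TTTCCC. The TATA box stood in 13 of these 25 promoters (52%), against 13.6% of all 32851 promoters of the table. The E-box stood in 14 (56%, against 20.2% of all) and the TC-box in 10 (40%, against 25.2%). Both motifs occurred together in 6 (24%, against 4.86%), namely those of Cela1, Cela2a, Prss1, Prss2, Cel and Amy2b. The 4 sequences printed are those of Cpa1, by which cells are ordered below, of Ctrb1, of Cel as one with both motifs, and of Pla2g1b, each read 5′ to 3′ on the gene's own strand. Capitals mark E-boxes and TC-boxes, which read as their reverse complement where they lie on the other strand. Positions count from the start site.
Cpa1 (chr6:30638968-30639267, plus strand): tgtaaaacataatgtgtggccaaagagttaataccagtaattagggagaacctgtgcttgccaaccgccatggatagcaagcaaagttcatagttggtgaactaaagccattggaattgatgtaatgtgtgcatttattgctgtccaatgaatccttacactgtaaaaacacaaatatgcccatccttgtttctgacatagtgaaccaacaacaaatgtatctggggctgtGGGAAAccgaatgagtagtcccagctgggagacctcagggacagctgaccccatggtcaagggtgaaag
Ctrb1 (chr8:111690961-111691260, minus strand): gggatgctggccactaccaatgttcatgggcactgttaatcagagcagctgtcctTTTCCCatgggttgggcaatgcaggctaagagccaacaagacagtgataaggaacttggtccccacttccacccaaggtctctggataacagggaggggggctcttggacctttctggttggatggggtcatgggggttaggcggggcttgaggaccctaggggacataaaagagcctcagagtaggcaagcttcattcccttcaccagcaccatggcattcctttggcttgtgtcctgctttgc
Cel (chr2:28563354-28563653, minus strand): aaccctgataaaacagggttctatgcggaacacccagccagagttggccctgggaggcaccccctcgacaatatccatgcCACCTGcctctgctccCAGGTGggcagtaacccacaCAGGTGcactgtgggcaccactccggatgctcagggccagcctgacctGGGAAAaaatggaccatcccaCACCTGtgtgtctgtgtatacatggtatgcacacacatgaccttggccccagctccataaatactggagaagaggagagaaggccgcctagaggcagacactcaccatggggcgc
Pla2g1b (chr5:115465892-115466191, plus strand): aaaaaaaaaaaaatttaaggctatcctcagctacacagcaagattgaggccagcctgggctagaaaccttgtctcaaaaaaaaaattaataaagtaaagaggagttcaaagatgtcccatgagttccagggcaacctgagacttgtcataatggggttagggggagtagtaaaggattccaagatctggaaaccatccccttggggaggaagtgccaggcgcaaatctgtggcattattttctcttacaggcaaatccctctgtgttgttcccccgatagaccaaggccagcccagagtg
The Cpa1 window has a TC-box whose first base lies at -19. The Ctrb1 window has a TC-box at -195. The Cel window has E-boxes at -170, -154, -134 and -65 and a TC-box at -86. None of the 3 motifs was found in the Pla2g1b window. The same was true of Pnliprp1, Rnase1 and Sycn among the 25 genes. In set 3, Pnliprp1 was at 21798 CPM in Ngn3KO and 2280 CPM in Neurod1OE cells. Rnase1 was at 794 and 33.6 CPM and Sycn at 29.7 and 3.21 CPM in the same order. A link between motifs and levels was not tested. A match is a match of letters only, and its absence concerns only these letters in this window. No promoter sequence of Clps, Try5, Try10, Ctrc, Zg16, Dmbt1 or Tff2 was used.

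The juice genes filled a large part of the RNA of cells labelled Ngn3KO in set 3 and little of it elsewhere. They took 10.1% of all counts in these cells, against 0.958% in Neurod1OE cells of set 3. Per cell, the share ran from 0.0828% over a median of 8.58% to 23.1% in Ngn3KO cells, and from 0.00234% over a median of 0.0350% to 22.3% in Neurod1OE cells. The ranges overlap, since some Neurod1OE cells reached the level of the Ngn3KO cells. In set 2 the share was 0.0500% in Ngn3KO cells (median cell 0.0186%) and 0.0997% in Neurod1OE cells (median cell 0.0182%).

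Carboxypeptidase A1, encoded by Cpa1 on chromosome 6 (30639218 to 30645363, plus strand, mm10), served to divide the cells. It reached 1000 CPM in 29 of 30 Ngn3KO cells of set 3 (96.7%, 82.8 to 99.9), against 16 of 95 Neurod1OE cells (16.8%, 9.94 to 25.9). In set 2, 1 Ngn3KO cell (0.488%, 0.0123 to 2.69) and 2 Neurod1OE cells (1.71%, 0.208 to 6.04) did so. Cells at or above this level are called Cpa1-high. The limit fell in a thinly filled range: 8 of 447 cells lay within 2-fold of it, the highest below the limit having 801 CPM and the lowest above it 1016 CPM. The 30th Ngn3KO cell of set 3 had 70.6 CPM of Cpa1 and 76153 CPM of the glucagon gene Gcg. The plot of 6 genes in single cells shows how far the 4 groups stand apart for each.

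**Figure D1:**
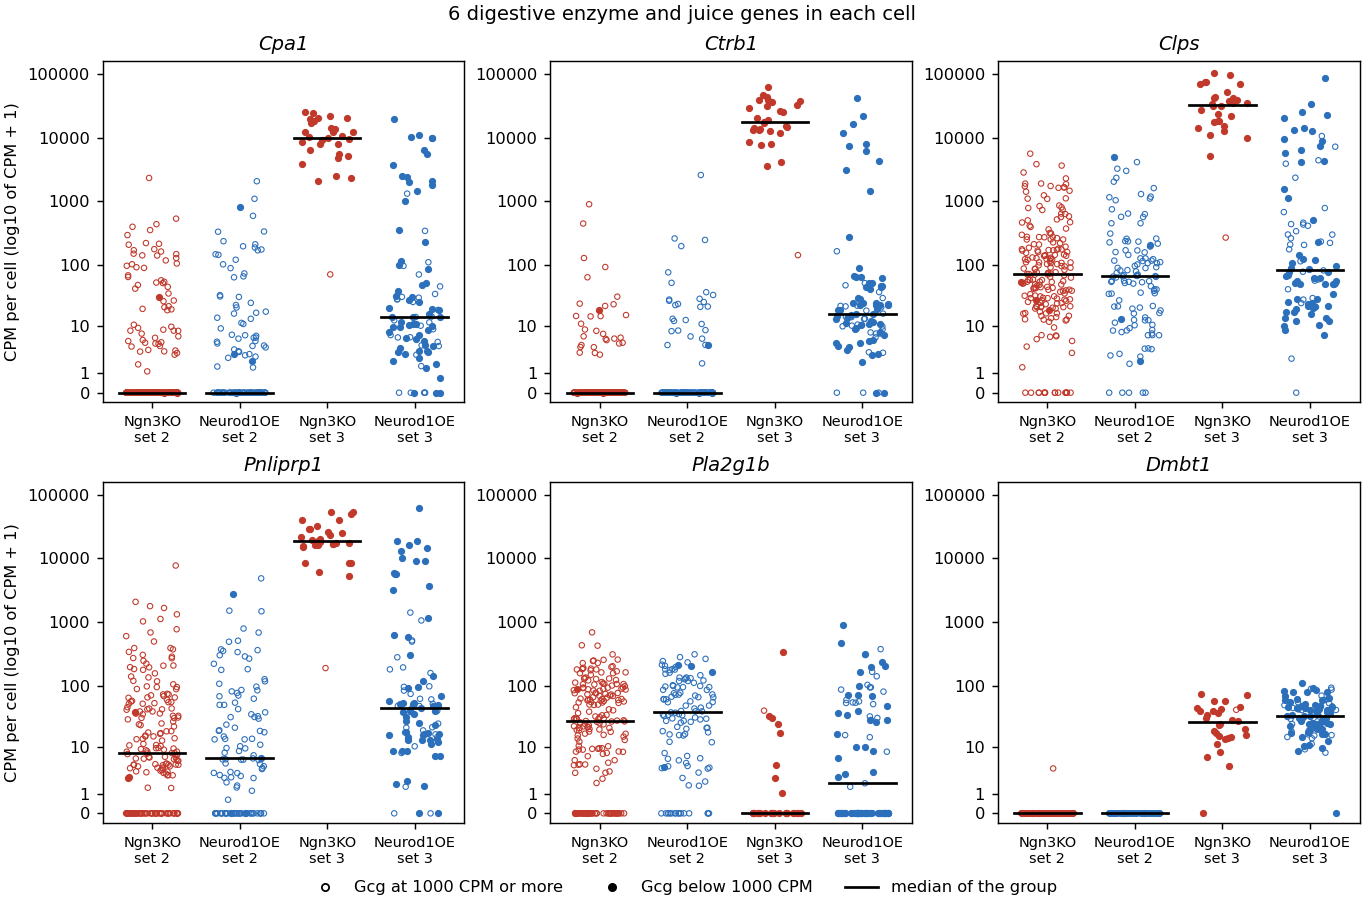
Each point is a cell, with its CPM of Cpa1, Ctrb1, Clps, Pnliprp1, Pla2g1b or Dmbt1 on the y axis (log10 of CPM + 1), by genotype and set on the x axis; open points have Gcg at 1000 CPM or more, filled points less, and bars are medians. Nearly all Ngn3KO cells of set 3 lie above 1000 CPM for the first 4 genes, while Pla2g1b has a median of 0 CPM there and Dmbt1 appears in both genotypes of set 3 but is near 0 in set 2.

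In set 3 taken whole, 25 of the 32 genes were measured, meaning at least 10 CPM with reads in at least 10% of cells of 1 genotype. Ngn3KO cells had 23 of these higher by 2-fold or more, against 5.96% of all 10482 genes measured, and 1 was at least 2-fold lower, against 31.8%. Their median log2 ratio of Ngn3KO over Neurod1OE, with 1 CPM added, was 3.49, against -0.56 for all genes. A gene that passes the filter only through the genotype where it is high has to differ, so these counts describe the genes and support nothing further. In such sums, more cells of a kind and more RNA per cell cannot be told apart. The proteases ranged widely: Ctrb1, chymotrypsinogen B, had 22543 CPM in Ngn3KO and 1444 CPM in Neurod1OE cells (log2 ratio 3.96). Procarboxypeptidase B1 (Cpb1) had 333 CPM in Ngn3KO and 2.93 CPM in Neurod1OE cells (6.41). Colipase (Clps) had 36151 CPM in Ngn3KO and 3508 CPM in Neurod1OE cells (3.36). The exceptions were Pla2g1b, encoding a secreted phospholipase A2, with 15.4 CPM in Ngn3KO and 41.6 CPM in Neurod1OE cells (-1.38), and Dmbt1, encoding a mucin-like scavenger receptor, with 27.5 CPM in Ngn3KO and 30.5 CPM in Neurod1OE cells (-0.15). The lower call of Pla2g1b was lost with TMM or DESeq2 scaling, under which the median of all genes moved to -0.06 or -0.02.

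A comparison of Cpa1-high cells alone takes out most of the difference in cell numbers. In 29 Ngn3KO and 16 Neurod1OE cells of this class the juice genes took 10.47% and 3.42% of all counts. The share per cell ran from 3.14% over a median of 8.70% to 23.1% in Ngn3KO cells, and from 0.539% over 3.80% to 22.3% in Neurod1OE cells. A Ngn3KO cell held a median of 18 of the 32 genes at 10 CPM or more (range 14 to 24), against 15 in a Neurod1OE cell (6 to 22). Of 26 genes measured, Ngn3KO cells had 19 higher by 2-fold or more (4.18% of all 9664 genes were) and 1 was at least 2-fold lower (18.7% of all were). The median log2 ratio was 1.78, against -0.35 for all genes. As in set 3 taken whole, some of the 19, such as Prss1 and Klk1, passed the filter through Ngn3KO cells alone. These counts, and those for subsets of these cells given below, therefore describe the genes and support nothing further. For none of the 32 genes (0) did every Ngn3KO cell lie above, or every one below, all Neurod1OE cells. Cpa1 is among the 19, with 10992 CPM in Ngn3KO and 4950.5 CPM in Neurod1OE cells, but it chose the cells and its ratio of 1.15 is no result. The heat map of set 3 shows the genes cell by cell.

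**Figure D2:**
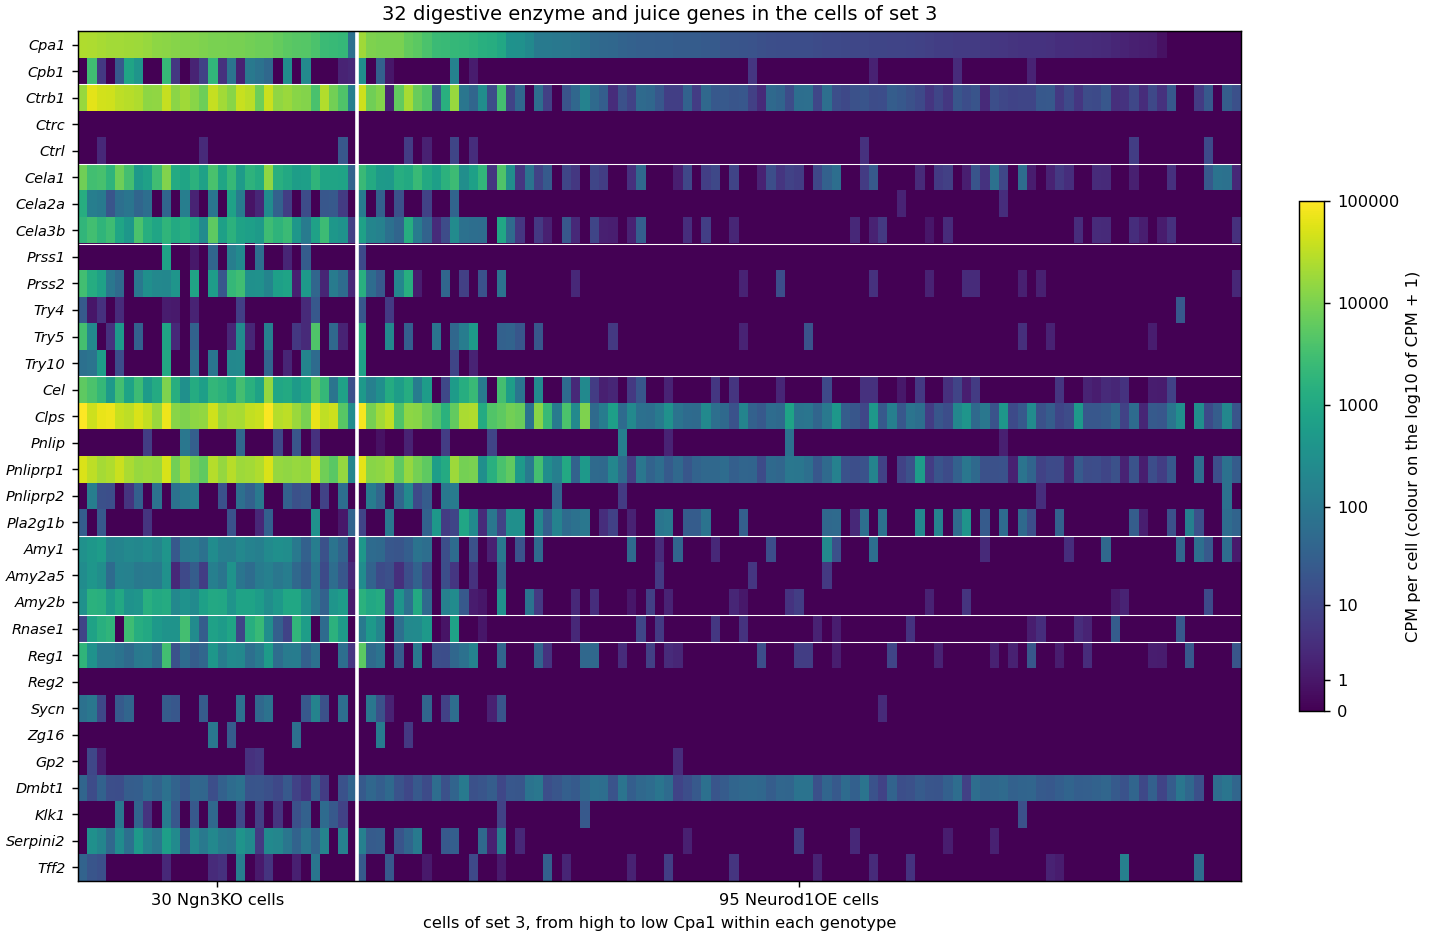
Rows are the 32 genes by class and columns the 30 Ngn3KO (left) and 95 Neurod1OE cells (right) of set 3, each ordered from high to low Cpa1; colour is CPM on the log10 scale of CPM + 1. Ctrb1, Clps and Pnliprp1 are bright across the Ngn3KO cells and in the Neurod1OE cells of highest Cpa1, Dmbt1 is even across all cells, and Pla2g1b is dark in most Ngn3KO cells (median 0 CPM) and scattered over Neurod1OE cells of high and low Cpa1.

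The proteases that cut within proteins were mostly higher in the Ngn3KO cells of this class. Ctrb1 (chromosome 8, 111686519 to 111691010, minus strand) ranged from 3616 over a median of 17857 to 62255 CPM in Ngn3KO cells, and from 2.06 over 3753 to 41902 CPM in Neurod1OE cells. Several Neurod1OE cells lay below every Ngn3KO cell, but the upper parts of the ranges overlap. The sums were 23362 CPM in Ngn3KO (23298 to 23428) and 5470.0 CPM in Neurod1OE cells (5436 to 5504), a log2 ratio of 2.09. The pancreatic elastases differed among themselves. Cela3b ranged from 118.1 over 1093 to 5679 CPM in Ngn3KO cells, and from 0 over 69.9 to 1295 CPM in Neurod1OE cells (log2 ratio of the sums 2.79). Cela2a was at 87.6 CPM in Ngn3KO and 7.85 CPM in Neurod1OE cells (3.32), and 18 of 29 Ngn3KO but 4 of 16 Neurod1OE cells held it at 10 CPM. Cela1 stayed within 2-fold, at 2517 CPM in Ngn3KO and 1480.4 CPM in Neurod1OE cells (0.77). Reads of Cela2a and Ctrc are uncertain, because the 2 genes overlap and share 13.01% and 13.8% of their exon stretches of 100 bases.

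Trypsinogens were scarcer and patchier, being absent from many cells of the class. Prss2 was at 578 CPM in Ngn3KO and 138.03 CPM in Neurod1OE cells (log2 ratio 2.06), with 24 of 29 Ngn3KO and 8 of 16 Neurod1OE cells at 10 CPM or more. Prss1 was at 48.3 CPM in Ngn3KO and 0.269 CPM in Neurod1OE cells (5.28), but only 6 Ngn3KO cells and 1 Neurod1OE cell reached 10 CPM. Try10 was at 96.5 CPM in Ngn3KO and 16.1 CPM in Neurod1OE cells (2.51), and at 0.99 with each cell weighted equally. For Try5 the sum and the typical cell differed in direction. Its sums were 295 CPM in Ngn3KO and 89.1 CPM in Neurod1OE cells (1.72, or 0.86 without its top cell), while the median cell had 2.52 CPM in Ngn3KO and 15.3 CPM in Neurod1OE cells. Try4 was below the filter, at 2.40 CPM in Ngn3KO and 0.807 CPM in Neurod1OE cells. Trypsinogen copies share 11.6% to 30.2% of their 100-base stretches with near relatives (Prss2 shares none), so reads may be split among them.

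Carboxypeptidase B1, which removes basic residues from peptide ends, had the second highest ratio of the measured genes. Cpb1 was at 345 CPM in Ngn3KO and 10.7 CPM in Neurod1OE cells (log2 ratio 4.89, or 4.24 without its top cell). It was a gene of few cells: the median cell had 5.37 CPM in Ngn3KO and 0 CPM in Neurod1OE cells, and 12 of 29 Ngn3KO and 3 of 16 Neurod1OE cells held 10 CPM. Ctrl, a chymotrypsin-like gene, was below the filter at 1.13 CPM in Ngn3KO and 0.914 CPM in Neurod1OE cells. Ctrc had 0 reads in both, which allows up to 0.141 CPM in Ngn3KO and 0.161 CPM in Neurod1OE cells (3 counts).

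Genes of fat digestion split into abundant members that were higher in Ngn3KO cells and others that were not. Colipase, the cofactor of pancreatic lipase, is encoded by Clps on chromosome 17 (28558149 to 28560766, minus strand). It ranged from 5129 over a median of 33679 to 102950.0 CPM in Ngn3KO cells, and from 1138 over 8485 to 84762 CPM in Neurod1OE cells (log2 ratio of the sums 1.65). The medians stand apart while the ranges overlap widely. Pnliprp1, a lipase-related protein encoded on chromosome 19 (58728887 to 58744169, plus strand), ranged from 5354 over 18837 to 53068 CPM in Ngn3KO cells, and from 308 over 8922 to 61497 CPM in Neurod1OE cells (1.46). With each cell weighted equally its log2 ratio was 0.95, and the highest cell of all was a Neurod1OE cell. Cel, the bile salt-dependent lipase, was at 2446 CPM in Ngn3KO and 761 CPM in Neurod1OE cells (1.68). Pnliprp2, which in the mouse acts on fats and galactolipids, was at 37.6 CPM in Ngn3KO and 41.03 CPM in Neurod1OE cells (-0.12). Classical pancreatic lipase itself (Pnlip) was nearly absent, at 5.82 CPM in Ngn3KO and 1.61 CPM in Neurod1OE cells, below the filter.

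Pla2g1b was the gene of the list that went the other way. It lies on chromosome 5 (115466262 to 115474722, plus strand), and its promoter is the one printed without a motif. That window follows RefSeq's start and ends before the GENCODE start given here, so bases around the GENCODE start were not searched. In Ngn3KO cells it ranged from 0 over a median of 0 to 342 CPM, and in Neurod1OE cells from 0 over 9.19 to 914 CPM. The sums were 14.5 CPM in Ngn3KO (12.9 to 16.2) and 63.02 CPM in Neurod1OE cells (59.5 to 66.7), a log2 ratio of -2.04. At least 10 CPM was found in 5 of 29 Ngn3KO and 7 of 16 Neurod1OE cells, so both genotypes hold cells with and without it.

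Amylases and pancreatic ribonuclease were higher in Ngn3KO cells with 1 exception. Amy1 was at 190.6 CPM in Ngn3KO and 44.3 CPM in Neurod1OE cells (log2 ratio 2.08), and Amy2a5 at 116.7 CPM in Ngn3KO and 19.7 CPM in Neurod1OE cells (2.51). Amy2b missed the 2-fold limit in sums at 665 CPM in Ngn3KO and 343 CPM in Neurod1OE cells (0.95). Its median cell had 574 CPM in Ngn3KO (range 34.5 to 1535) and 110.9 CPM in Neurod1OE cells (0 to 1562), and all 29 Ngn3KO but 11 of 16 Neurod1OE cells held it at 10 CPM. Amylase copies share stretches too (44.3% of Amy2a5, 11.4% of Amy2b), and Amy1 overlaps Rnpc3 on the same strand. Rnase1, which degrades dietary RNA, was at 823 CPM in Ngn3KO and 125.2 CPM in Neurod1OE cells (2.71).

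Among granule and juice proteins, 4 of 7 measured genes were higher (4.18% of all genes were) and none (0) lower (18.7% of all were). Serpini2, a serpin protease inhibitor of the pancreas, was at 182.8 CPM in Ngn3KO and 37.05 CPM in Neurod1OE cells (log2 ratio 2.27). Klk1, tissue kallikrein, was at 19.1 CPM in Ngn3KO and 0.699 CPM in Neurod1OE cells (3.57). Sycn, syncollin of the granule membrane, was at 30.8 CPM in Ngn3KO and 12.2 CPM in Neurod1OE cells (1.27, or 0.81 with cells weighted equally). Tff2, a trefoil peptide, was at 12.9 CPM in Ngn3KO and 2.85 CPM in Neurod1OE cells (1.85, or 0.89 without its top cell). The other genes were carried by single cells or did not differ by 2-fold. Reg1, encoding the juice protein lithostathine, was at 266 CPM in Ngn3KO and 159.9 CPM in Neurod1OE cells (0.73), but 2.73 without its top cell, a Neurod1OE cell with 5565 CPM. Zg16, a lectin of zymogen granules, was at 6.95 CPM in Ngn3KO and 10.6 CPM in Neurod1OE cells (-0.55), and at 2.56 without its top cell, a Neurod1OE cell with 122.9 CPM. Dmbt1 was at 26.96 CPM in Ngn3KO and 24.5 CPM in Neurod1OE cells (0.13). The granule anchor protein gene Gp2 had 24 reads in Ngn3KO and 0 in Neurod1OE cells, at least 6.99-fold higher against a floor of 3 counts over the group, and Reg2 had 0 reads in both.

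**Figure D3:**
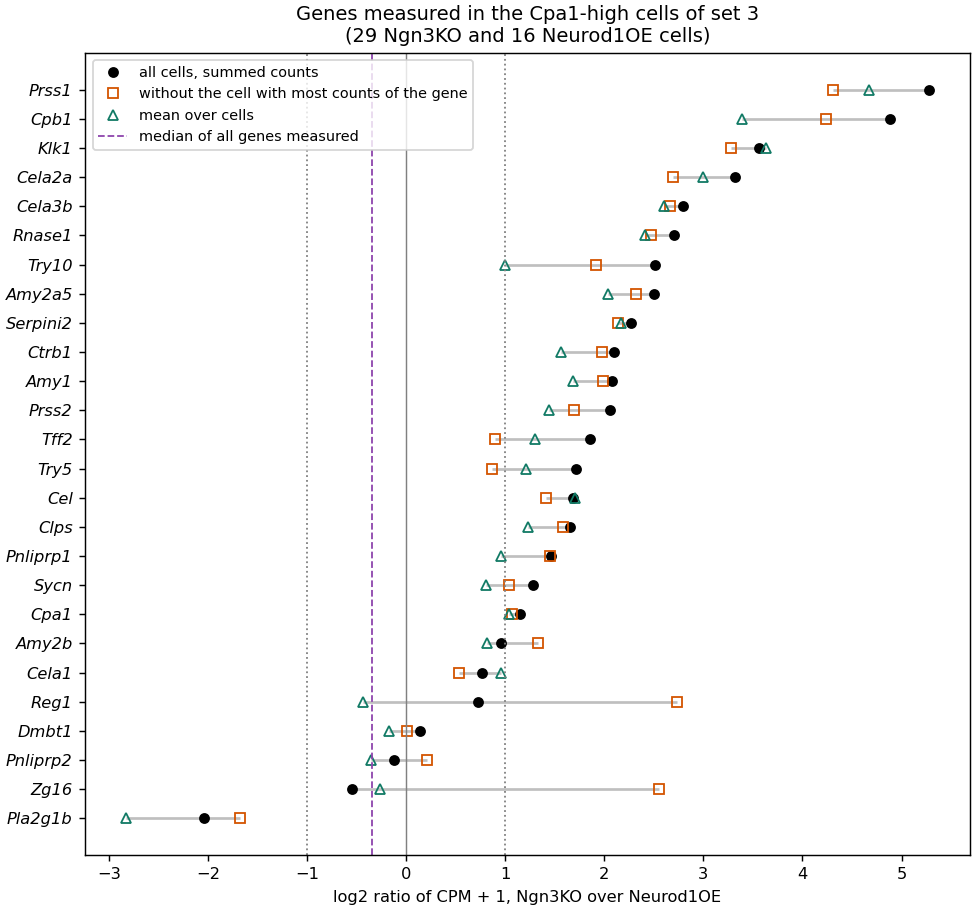
The x axis is the log2 ratio of CPM + 1 of Ngn3KO over Neurod1OE for the 26 genes measured in Cpa1-high cells of set 3 (29 and 16 cells); circles use all cells, squares leave out the cell with most counts of the gene, triangles are means over cells, the dashed line is the median of all genes (-0.35) and dotted lines mark 2-fold. With all cells, 19 genes lie right of the upper 2-fold line and Pla2g1b lies left of the lower one. Of these 19, some fall short of 2-fold by another measure, such as Try5, Try10, Pnliprp1, Sycn and Tff2. Reg1 and Zg16 move by more than 1.5 units with 1 cell.

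Other acinar genes showed a different division in the same 45 cells. The counts below stand against 4.18% higher and 18.7% lower by 2-fold or more among all 9664 genes measured. Of 10 acinar transcription factors, 0 were past 2-fold in either direction (median log2 ratio 0.05). Xbp1, a regulator of the secretory pathway, was at 388 CPM in Ngn3KO and 395 CPM in Neurod1OE cells, and Rbpjl, the PTF1 subunit, at 360 CPM in Ngn3KO and 411 CPM in Neurod1OE cells. Bhlha15 (Mist1) was at 190.2 CPM in Ngn3KO and 140.5 CPM in Neurod1OE cells. Of 7 other acinar secretory products measured, 5 were at least 2-fold higher and 0 lower (median 1.39). Among them, Erp27 of the endoplasmic reticulum was at 256 CPM in Ngn3KO and 77.1 CPM in Neurod1OE cells. Of 10 genes of secretion machinery and receptors, 1 was higher and 1 lower (median 0.30). The cholecystokinin receptor gene Cckar, which relays the meal signal for enzyme release, was at 844 CPM in Ngn3KO and 595 CPM in Neurod1OE cells.

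Some markers of other cell types differed between the genotypes in the sums of these cells. From the list of 16 pan-endocrine genes, Ngn3KO cells had 13 lower by 2-fold or more (18.7% of all genes were, median -3.22). The granule protein gene Chga was at 312 CPM in Ngn3KO and 1487 CPM in Neurod1OE cells. Typical cells were closer, with a median summed pan-endocrine level of 153.6 CPM in Ngn3KO and 188.3 CPM in Neurod1OE cells. Chga reached 1000 CPM in 3 of 29 Ngn3KO and 6 of 16 Neurod1OE cells. Of 10 duct and trunk genes measured, 2 were higher and 1 lower, and of 6 hepatic genes 0 were higher and 2 lower. Of a list of 10 mesenchyme genes 6 were measured, and these 6 were higher by 2-fold or more (4.18% of all genes were, median 6.00). Col1a1 was at 314 CPM in Ngn3KO and 1.40 CPM in Neurod1OE cells. The summed mesenchyme level per cell ran from 0 over 75.01 to 18011 CPM in Ngn3KO cells, with 0 of 10 genes without reads, and from 0 over 31.9 to 290 CPM in Neurod1OE cells, where 4 of 10 had none. It reached 1000 CPM in 3 of 29 Ngn3KO cells and 0 of 16 Neurod1OE cells. Without those 3 cells, a setting chosen after their values were seen, 19 of 26 juice genes were at least 2-fold higher (3.58% of all genes were) and the log2 ratio of Pla2g1b was -3.99. Without the 9 cells with Chga at 1000 CPM or more, 18 of 24 were higher (7.07% of all genes) and 0 lower (16.1%), Pla2g1b then being under the filter at -1.64. Among male cells only (29 Ngn3KO and 7 Neurod1OE cells), 22 of 25 were higher (7.65% of all genes) and 1 lower (27.5%). The 7 male Neurod1OE cells included those with 2969, 4086, 7414 and 7601 CPM of Chga. Most Neurod1OE cells with Chga under 1000 CPM were female, whereas all Ngn3KO cells were male. Neither subset was thus alike between the genotypes in both sex and Chga. The part of the endocrine genes in the remaining differences was not tested.

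Ctrb1 and Clps parted company in some of these cells, a split noticed after their values were seen. Ctrb1 was below 100 CPM in 0 of 29 Ngn3KO and 5 of 16 Neurod1OE cells, at 2.06, 13.5, 24.3, 43.96 and 90.6 CPM. All 5 were among the 6 Neurod1OE cells with Chga at 1000 CPM or more, and the 6th had 41902 CPM. Clps was high in these same 6 cells, from 4331 over a median of 24016 to 84762 CPM, against 1138 over 6962 to 20074 CPM in the 10 Neurod1OE cells with less Chga. In the 3 Ngn3KO cells with Chga at that level Ctrb1 was present throughout, at 3616, 16847 and 39384 CPM, and Clps had 69382, 94547 and 102950.0 CPM. Pla2g1b followed Chga in both genotypes. It was at 30.4, 33.1 and 342 CPM in the 3 Ngn3KO cells with high Chga, against 0 over a median of 0 to 23.9 CPM in the 26 others. It ran from 9.84 over 165.8 to 914 CPM in the 6 Neurod1OE cells with high Chga, against 0 over 1.57 to 36.97 CPM in the 10 others. One of the 5 Ctrb1-low cells also had 80304 CPM of Gcg.

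**Figure D4:**
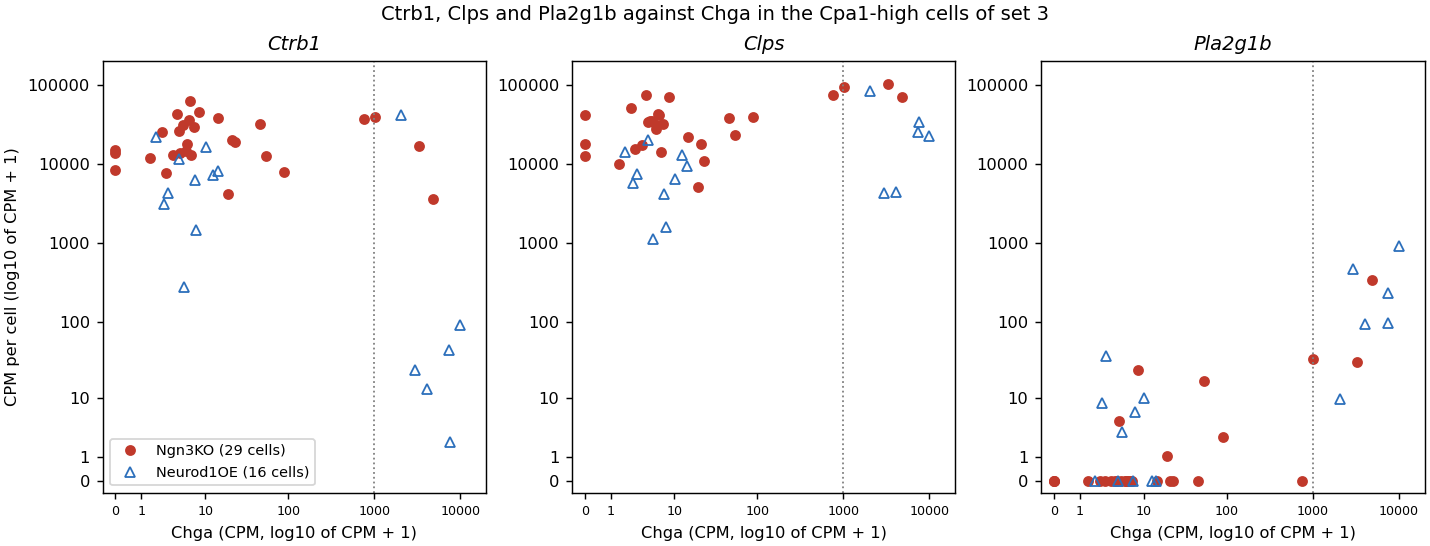
Each point is 1 of the 45 Cpa1-high cells of set 3 (circles, 29 Ngn3KO; triangles, 16 Neurod1OE), with Chga on the x axis and Ctrb1, Clps or Pla2g1b on the y axis, all as log10 of CPM + 1; the dotted line marks 1000 CPM of Chga. Right of the line 5 of 6 Neurod1OE cells have Ctrb1 below 100 CPM, while Clps is at 4331 CPM or more and Pla2g1b is at 9.84 CPM or more.

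Levels of different genes were compared per kilobase of exon, in the 44 Cpa1-high cells of set 3 with Gcg below 1000 CPM. Clps led with 42767 CPM per kb, followed by Ctrb1 with 17564 and Pnliprp1 with 7317 CPM per kb. Cpa1 had 4776 CPM per kb, but the cells were chosen for it and its place is no result. The next genes were Cela1 with 905, Cel with 810, Cela3b with 561, Rnase1 with 515 and Prss2 with 470 CPM per kb. This is an order of summed levels. The CPM of single cells span more than 10-fold for most genes, Ctrb1 running from 2.06 to 62255 and Cela1 from 299 to 14798 CPM. Neighbours in the order were not compared cell by cell, so whether they differ was not tested. At the low end stood Dmbt1 with 3.64, Try4 with 2.12, Pnlip with 1.69, Ctrl with 0.913 and Gp2 with 0.309 CPM per kb, whereas Ctrc and Reg2 had 0 reads.

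The genes also varied together to unequal extents within the class, as Spearman correlations of single cells show. These are descriptions without a test, since the cells share their library preparation and a gene's CPM lowers that of the others. Clps and Pnliprp1 had 0.65 over 29 Ngn3KO and 0.79 over 15 Neurod1OE cells with Gcg below 1000 CPM. Ctrb1 and Cela3b had 0.62 over Ngn3KO and 0.66 over Neurod1OE cells. Other pairs did not go together in both genotypes. Clps and Cela1 had 0.59 over Ngn3KO and -0.39 over Neurod1OE cells, and Pnliprp1 and Cela1 had 0.71 over Ngn3KO and -0.06 over Neurod1OE cells. Prss2 and Pla2g1b had 0.20 over Ngn3KO and -0.62 over Neurod1OE cells. Ctrb1 and Pla2g1b had -0.63 over Neurod1OE cells, but only -0.20 over Ngn3KO cells, most of which were at 0 CPM of Pla2g1b, and 0.25 over 32 Gcg-high Neurod1OE cells of set 3. Cpa1, which chose the cells, had 0.54 over Ngn3KO and 0.49 over Neurod1OE cells with Ctrb1.

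The order in which the genes appear along Cpa1 was read in all 99 cells with Gcg below 1000 CPM. They fell into classes of 7 cells below 1 CPM of Cpa1, 22 at 1 to 10, 21 at 10 to 100, 5 at 100 to 1000 and 44 at 1000 CPM or more. From the lowest class up they hold 2, 0, 1, 0 and 29 Ngn3KO cells and 5, 22, 20, 5 and 15 Neurod1OE cells, so Cpa1 level and genotype cannot be told apart over the whole range. Cell type differed as well. In the 48 Neurod1OE cells of set 3 below the top class, the 16 pan-endocrine genes summed to a median of 5125 CPM. The median was 157.6 CPM in the 44 cells of the top class, and the ranges overlapped. The order thus runs across cell types, and an order within acinar cells was not tested. Read by class, Clps was first, but it was also common in cells with Gcg at 1000 CPM or more, as given below. It stood at 10 CPM or more in 100%, 81.8%, 100%, 100% and 100% of cells from the lowest to the highest class, with medians of 27.3, 21.4, 51.4, 4913 and 23039 CPM. Pnliprp1 followed, at 28.6%, 59.1%, 95.2%, 100% and 100% of cells. Its medians were 2.73, 12.7, 39.5, 2770 and 16565 CPM. The 5 cells of the 100 to 1000 CPM class were split: Clps had 4913, 8747 and 12707 CPM in 3 of them, with Chga between 1846 and 8661 CPM, but 77.6 and 120.8 CPM in the other 2, with Chga at 1979 and 603.8 CPM. Pnliprp1 had 2770, 5926 and 3160 CPM in the same 3 cells, taken in that order, and 116.4 and 140.9 CPM in the other 2. The 2 cells with less were the shallow ones, with 25769 and 49689 reads, where 1 read is already more than 10 CPM. Of the 3 others, 1 is of set 2.

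Cela1 and Cel came next, reaching 60% of the 5 cells at 100 to 1000 CPM of Cpa1, and 100% and 97.7% of the top class. Ctrb1 had another course. It was found at 10 CPM in 42.9%, 54.5%, 85.7%, 20% and 97.7% of cells, but its medians below the top class were only 4.17, 10.8, 22.4 and 4.60 CPM, against 13871 CPM in the top class. In 2 of the 5 intermediate cells, both Neurod1OE of set 3, Clps was at 12707 and 8747 CPM and Ctrb1 at 60.99 and 9.01 CPM, with Chga at 8641 and 8661 CPM. A further 10 genes reached at least 50% of cells in the top class alone. They were Cela3b (97.7%), Amy1 (93.2%), Amy2b (90.9%), Reg1 (86.4%), Serpini2 (81.8%), Amy2a5 (79.5%), Rnase1 (75%), Prss2 (72.7%), Pnliprp2 (54.5%) and Cela2a (50%).

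The remaining genes did not reach 50% of the 44 top cells. Sycn was in 45.5%, Try5 in 40.9%, Cpb1 in 34.1%, Try10 in 31.8%, Klk1 in 25%, Tff2 in 18.2% and Prss1 in 15.9% of them. Pnlip (11.4%), Zg16 (9.09%), Try4 (6.82%), Ctrl (4.55%) and Gp2 (2.27%) were rarer still. Pla2g1b was in 25% of top cells but in 80% of the 5 cells of the class below. In all, 17 of the 32 genes were in at least 50% of top cells at 10 CPM, and 10 at 100 CPM, both counts including Cpa1, which defines the classes and has no order of its own. At 100 CPM, Clps, Pnliprp1 and Cel started in the 100 to 1000 CPM class and Ctrb1, Cela1, Cela3b, Amy1, Amy2b and Rnase1 in the top class. The scarcer genes did not form 1 strict sequence: in 31 pairs, 26.1% of those compared, at least 90% of the cells with the rarer gene also held the commoner one. In these 31 pairs the commoner gene was itself in 72.7% (Prss2) to 86.4% (Reg1) of the 44 cells. High overlap is likely there without any order, so the 31 pairs do not show a sequence.

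**Figure D5:**
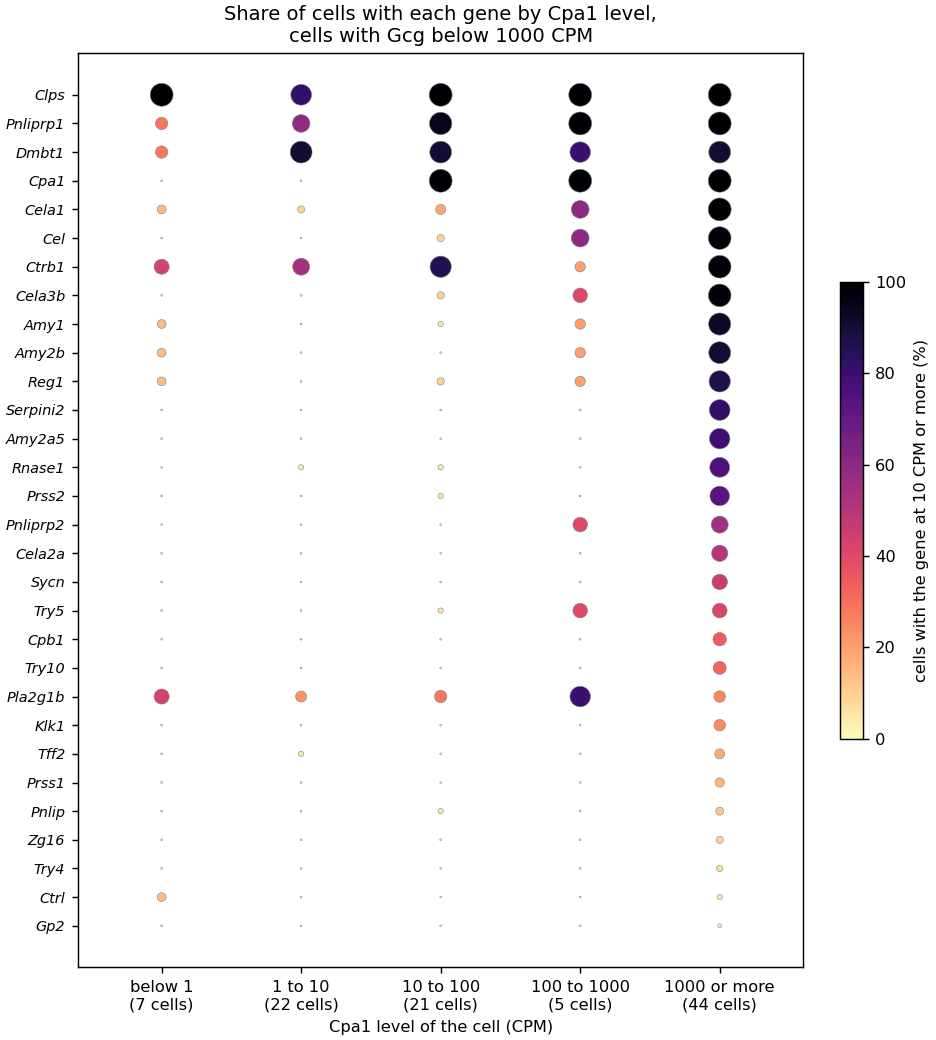
Dot size and colour give the percent of cells with each gene at 10 CPM or more, in cells with Gcg below 1000 CPM, by the Cpa1 level of the cell on the x axis (7, 22, 21, 5 and 44 cells); the 2 genes without reads here are left out. Clps is at 81.8% or more in every class, Ctrb1 is at 20% in the class of 5 cells, and below the top class the genes from Cela3b downward reach at most 40% except Pla2g1b.

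Traces of the juice genes were present in cells with Gcg at 1000 CPM or more, here called Gcg-high. Glucagon is a hormone of endocrine alpha cells, which do not secrete digestive enzymes. In set 2 all but 3 Ngn3KO and all but 4 Neurod1OE cells were Gcg-high, against 1 Ngn3KO and 32 Neurod1OE cells in set 3. A cell held a median of 3 of the 32 genes at 10 CPM in Ngn3KO and 2 in Neurod1OE cells of set 2, and 6 in Neurod1OE cells of set 3. Clps was at 10 CPM in 87.6% of Ngn3KO and 81.4% of Neurod1OE cells of set 2 and in 93.8% of Neurod1OE cells of set 3, with median levels of 72.3, 65.6 and 228 CPM in the same order of groups. Pla2g1b was present in 64.9% of Ngn3KO and 72.6% of Neurod1OE cells of set 2 and in 62.5% of Neurod1OE cells of set 3. Its medians of 26.6, 36.8 and 31.2 CPM exceed the median of 0 CPM in Cpa1-high Ngn3KO cells. Pnliprp1 was present in 45.5% of Ngn3KO and 45.1% of Neurod1OE cells of set 2 and in 87.5% of Neurod1OE cells of set 3.

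The proteases differed between the sets in Gcg-high cells. Ctrb1 was at 10 CPM in 6.93% of Ngn3KO and 17.7% of Neurod1OE cells of set 2 but in 62.5% of Neurod1OE cells of set 3, at a median of 13.3 CPM there. With each cell thinned to 165298 reads, a Ctrb1 read was found in 10.53% of Ngn3KO and 21.4% of Neurod1OE cells of set 2 and in 92.6% of Neurod1OE cells of set 3. Pla2g1b had a read in 70.4% and Clps in 96.3% of the same thinned set 3 cells, so Ctrb1 was not rarer than these there. Cpa1 was at 10 CPM in 20.3% of Ngn3KO and 28.3% of Neurod1OE cells of set 2 and in 56.3% of Neurod1OE cells of set 3. Cela1 was there in 15.8% of Ngn3KO and 16.8% of Neurod1OE cells of set 2 and in 34.4% of Neurod1OE cells of set 3. Prss1, Try10, Zg16 and Reg2 had 0 reads in all Gcg-high cells of both sets.

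The makeup of the traces was compared with that of Cpa1-high cells by counting the reads of each gene for every Ctrb1 read. In Cpa1-high cells of set 3 with Gcg below 1000 CPM there were 1.69 Clps reads for each Ctrb1 read. In Gcg-high cells there were 46.1 in Ngn3KO and 2.44 in Neurod1OE cells of set 2 and 58.5 in Neurod1OE cells of set 3. For Pla2g1b the number was 0.00231 in the Cpa1-high cells, against 8.95 in Ngn3KO and 0.565 in Neurod1OE Gcg-high cells of set 2 and 3.54 in Neurod1OE Gcg-high cells of set 3. Several other genes were above the Cpa1-high proportion as well. Pnliprp1 had 17.4 in Ngn3KO Gcg-high cells of set 2 and 12.9 in Neurod1OE Gcg-high cells of set 3, against 1.05 in the Cpa1-high cells. Cpa1, which chose the Cpa1-high cells, had 4.80 and 6.25 in the same Gcg-high groups, against 0.542. Cela1 had 1.35 and 0.910, against 0.135, and Amy1 had 0.956 and 0.861, against 0.00814. Relative to Ctrb1, these genes were thus above the Cpa1-high proportion in the groups given. All these numbers are per Ctrb1 read, so few Ctrb1 reads in the traces raise all of them at once. They are not separate differences of each gene, and proportions of the other genes to one another were not compared. Amy2b was not above its Cpa1-high proportion of 0.0343. It had 0.00844 in Ngn3KO Gcg-high cells of set 2 and 0.0341 in Neurod1OE Gcg-high cells of set 3, on 4 and 11 reads. High values were not limited to Gcg-high cells. Neurod1OE cells of set 3 with both Gcg and Cpa1 below 1000 CPM had 26.1 for Clps, 13.8 for Pnliprp1 and 1.52 for Pla2g1b. The proportion of Prss2 rests on too few reads to be read, 21 in 2 Ngn3KO cells of set 2 and 10 in 4 Neurod1OE cells of set 3. The values for Neurod1OE Gcg-high cells of set 2 rest largely on 1 cell, the deepest of all with 2788066 reads, which held 92.2% of the Ctrb1 reads of its group. In Neurod1OE Gcg-high cells of set 3, 1 cell with 1322 CPM of Cpa1 held 68% of the Cpa1 reads. In Ngn3KO Gcg-high cells of set 2, 1 cell held 41.6% of the Ctrb1 reads. The source of the traces was not tested.

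In set 2 taken whole, 7 of the 32 genes were measured. In Ngn3KO cells 0 were higher by 2-fold or more (0.859% of all 10011 genes were) and 5 were at least 2-fold lower (1.67% of all were). Cpa1 was at 28.7 CPM in Ngn3KO and 118.7 CPM in Neurod1OE cells (log2 ratio -2.01). Ctrb1 was at 6.01 CPM in Ngn3KO and 103.7 CPM in Neurod1OE cells (-3.90), and Cela1 at 8.02 CPM in Ngn3KO and 52.3 CPM in Neurod1OE cells (-2.56). Cel (-1.71) and Pnliprp1 (-1.48) were the other 2, while Clps (275 CPM in Ngn3KO and 310.2 CPM in Neurod1OE cells) and Pla2g1b (53.5 CPM in Ngn3KO and 62.7 CPM in Neurod1OE cells) stayed within 2-fold. Ctrb1, Cela1 and Cel passed the filter of 10 CPM through Neurod1OE cells alone, so the counts describe the genes and support nothing further. Sex differed between the genotypes of set 2 as well, and its part in these ratios was not tested. Single cells carried most of the differences. Without the top cell of each gene only Cela1 of 6 juice genes passed 2-fold (-1.06), against 0.476% of all genes, and the ratio was -0.60 for Cpa1, -0.43 for Ctrb1, -0.28 for Cel and -0.17 for Pnliprp1.

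The same held in Gcg-high cells of set 2. Of 7 genes measured, 0 were higher (0.838% of all 10023 genes were) and the same 5 were lower (1.72% of all were), and 0 of 5 were lower without the top cell of each gene (0.497% of all were). That deepest cell, a Neurod1OE cell, had 2069.9 CPM of Cpa1, 2587 CPM of Ctrb1 and 4841 CPM of Pnliprp1, with 159.3 CPM of Clps and 1870 CPM of Gcg. It held 69.8% of the Cpa1 and 69% of the Pnliprp1 reads of the Gcg-high Neurod1OE cells of set 2. Cells of set 2 also split by Gm12338, a predicted gene present at 10 CPM in some cells of both genotypes: 1 of 6 juice genes measured was lower within the cells that had it (4.37% of all genes were) and 5 of 7 within those that did not (3.53%). Its part in the result was not tested.

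Dmbt1 followed the set and neither Cpa1 nor genotype. It had a read in 98.4% of cells of set 3 and 0.311% of cells of set 2. At 10 CPM it was in 26 of 30 Ngn3KO and 90 of 95 Neurod1OE cells of set 3, from 0 over a median of 25.6 to 73.6 CPM in Ngn3KO and from 0 over 32.4 to 110.3 CPM in Neurod1OE cells. Across Cpa1 classes with Gcg below 1000 CPM its share was 28.6%, 90.9%, 90.5%, 80% and 90.9%, the lowest class holding 3 cells of set 2 among its 7. In all, 12 genes had a read in at least 50% of set 3 and under 5% of set 2 cells, and 1 gene had the reverse. Those 12 included the haemoglobin genes Hbb-y (95.2% of set 3 and 0% of set 2 cells) and Hba-a1 (85.6% and 0%), the secreted protein gene Lcn2 (72.8% and 0%) and, of the juice genes, also Cela3b (57.6% and 4.97%). Their part in the levels of Dmbt1 was not tested.

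The genes outside the list whose levels were most like the mean of its measured members were sought over 92 cells of set 3 with Gcg below 1000 CPM, among 11523 genes. By Spearman correlation with the mean log2(CPM + 1) of 25 juice genes, the 10 highest included Amy2a3 (0.88), Erp27 (0.86), Spink3 (0.85), Nupr1 (0.85), Amy2a1 (0.84), Amy2a2 (0.84), Arhgdig (0.84), Tmed6 (0.83) and Rbpjl (0.83). Amy2a1, Amy2a2 and Amy2a3 share sequence with members of the list. The cells fall into a high and a low group, so the values were also taken within each. Erp27 had 0.72 over the 44 Cpa1-high cells and -0.09 over the 48 cells with less Cpa1, and Spink3, a trypsin inhibitor, had 0.67 and 0.26. Rbpjl had only 0.30 and 0.20.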

How the data were processed

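The deposited matrices hold whole-number counts of reads for each gene in each cell, not normalized. Per the submitters' processing notes, the authors trimmed reads with Trimmomatic 0.39, aligned them with HISAT2 2.1.0 to mm10 and counted them with featureCounts 2.0.0. The annotation, the use of strand and of molecular identifiers, and any filter on cells are not given in the sources used here. Reads of one molecule may therefore be counted more than once. From these counts, 92 spike-in rows were left out, CPM was computed over the summed cells of a group by the plain total, and log2 ratios had 1 CPM added. Genes at 10 CPM with reads in at least 10% of cells of 1 genotype were measured, and 2-fold was the call. No filter on cells and no doublet caller was applied. For shares of cells with a read, cells were thinned to 165298 reads, which left out 45 shallower cells. Alternatives used TMM (edgeR 4.0.16) and DESeq2 1.42.0 size factors in R 4.3.3, and the rest Python 3.11.15, numpy 2.4.6, scipy 1.17.1, pandas 2.3.3 and matplotlib 3.10.9. The ratio script was tested on simulated data. Gene positions and shared stretches come from GENCODE M21 (GRCm38, mm10). All 32 genes are accounted for; from the other lists up to 4 genes with the highest CPM in Cpa1-high cells could be named, and the 10 genes most like the juice genes, 1 of which is not reported here. The genes and lists were chosen with earlier results of these data known.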

Additional observations from a re-analysis of the deposited data

Results flagged for a closer look

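The genotype ratio pointed in opposite directions in the 2 sets for 5 juice genes, with 1 sample per genotype and set, and the difference itself was not tested. On the log2 scale, Ngn3KO over Neurod1OE was 3.01 in set 3 and -2.01 in set 2 for Cpa1, a difference of 5.02. It was 3.96 in set 3 and -3.90 in set 2 for Ctrb1 (7.86), and 2.61 in set 3 and -2.56 in set 2 for Cela1 (5.17). It was 3.49 in set 3 and -1.71 in set 2 for Cel (5.196), and 3.26 in set 3 and -1.48 in set 2 for Pnliprp1 (4.74). Neurod1 levels, sex and the share of Gcg-high cells also differ between the groups of the sets, and their part in the result was not tested. Ngn3KO cells whose sex could be called were all male in set 3 and all female in set 2, whereas Neurod1OE cells of both sets held both sexes.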

How the results depend on the processing

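No paired analysis was possible because each genotype counts as 1 sample and the results come from no test. Among log2 ratios of single genes under the alternatives, 239 kept direction and call, 23 fell short of 2-fold, 3 newly passed it and 15 changed sign. Subsets by Cpa1, Chga, Gcg, sex, Gm12338 and mesenchyme genes were chosen after seeing the data, and where values changed the cause was not tested.

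In set 2, the 5 lower genes became 9 without the filter, 3 at 4-fold, and 1 with cells weighted equally, without top cells, without Cpa1-high cells or in Gm12338-positive cells. Signs turned in Gm12338-positive cells (Ctrb1 1.34, Pnliprp1 0.0026) and with cells weighted equally (Cel 0.23). In Gcg-high cells of set 2, the 5 lower genes became 9 without the filter, 2 at 4-fold, 1 with cells weighted equally, and 0 without top cells, without cells at 100 CPM of Cpa1 or in Gm12338-positive cells. Signs turned there without cells at 100 CPM of Cpa1 (Cpa1 0.31, Pnliprp1 0.97, Cela1 0.13, Cel 0.88) and in Gm12338-positive cells (Cpa1 0.13, Ctrb1 1.31, Pnliprp1 0.89, Cel 0.049). They also turned with cells weighted equally (Pnliprp1 0.021, Cel 0.43) and without top cells (Pnliprp1 0.29, Cel 0.12).

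In set 3, the 1 lower gene became 0 with TMM, DESeq2 or a 4-fold limit. In Cpa1-high cells, the 19 higher genes became 12 at 4-fold, and the 1 lower gene became 0 in cells with Chga under 1000 CPM. The share of cells at the Cpa1 limit moved to 50% for Ngn3KO and 4.21% for Neurod1OE cells of set 3 at 10000 CPM. In set 2 it was 0% for both genotypes at 10000 CPM, 9.76% for Ngn3KO and 13.7% for Neurod1OE cells at 100 CPM, and 0% for Ngn3KO cells after thinning. The share of counts was 8.58% for Ngn3KO and 0.0350% for Neurod1OE cells of set 3 as a median over cells, and 9.76% and 0.847% without the top cell. In set 2 it was 0.0186% for Ngn3KO and 0.0182% for Neurod1OE cells as a median, and 0.0462% and 0.0593% without the top cell. At 100 CPM, 10 genes in place of 17 reached 50% of the top class.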
